A study of Homo sapiens with 8 samples.

Results

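The 10 genes described here are lung lineage transcription factors and secreted or surface products of lung epithelium. The factors were NKX2-1, FOXA1, FOXA2, GATA6 and TFAP2A, and the products were the surfactant proteins SFTPB, SFTPC and SFTPD, the club cell secretoglobin SCGB1A1 and the mucin MUC1. The genes were chosen with earlier results of these data known. Their probe sets were taken by gene symbol alone, dim ones included. They are all those of the Affymetrix HG-U133 (A) array whose annotation named one of the genes. This gave 24 probe sets of 22283 on the array, for 10 of the 11963 genes that have a probe set with a single symbol. The RNA came from a lung adenocarcinoma cell line (non-small cell lung cancer), grown in DMEM with 10% serum, whose name the labels leave out. Cells were treated for 24 h with rosiglitazone and carboplatin together, with 1 µM rosiglitazone, with 10 µM carboplatin or with control medium (DMSO control in the design text), and doses within the combination are not repeated in the labels. Rosiglitazone is a ligand of the nuclear receptor PPARγ, carboplatin is a platinum drug that crosslinks DNA, and the series title concerns synergy between such ligands and platinum drugs. Each of the 4 groups had 2 arrays, and nothing in the labels says that these came from separate cultures, so every p-value measures only the spread between arrays, which may be technical.

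NKX2-1 is a homeodomain factor required for lung development, and with the forkhead factors FOXA1 and FOXA2 and the zinc finger factor GATA6 it activates surfactant and secretoglobin genes in lung epithelium. SFTPB and SFTPC are hydrophobic proteins that help lipids spread at the air surface of alveoli, SFTPD is a collectin of innate defence, and SCGB1A1 is secreted by club cells of the airways. MUC1 is a membrane mucin of glandular epithelia, and TFAP2A encodes AP-2α, a transcription factor of neural crest and epithelial lineages. Many lung adenocarcinomas keep NKX2-1 and surfactant gene expression, and others lose it.

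Upstream sequences of TFAP2A and SFTPB are shown because the probe sets of each of these genes did not move together and RefSeq lists 2 starts for each gene in GRCh38.p14. Each sequence holds the 250 bases before a start, 5′ to 3′ on the minus strand, which carries both genes. TFAP2A spans chr6:10396677-10419659 and SFTPB chr2:85657307-85668741 in that annotation. They lie at chr6:10419660-10419909 and chr6:10412392-10412641 for TFAP2A and at chr2:85668742-85668991 and chr2:85668200-85668449 for SFTPB. NKX2-1 and MUC1 also have 2 starts and probe sets that did not move together, but their sequences are not shown. Whether the starts have a part in the differences between probe sets was not tested. Capitals mark matches to the motifs described after the sequences.
TFAP2A start 1: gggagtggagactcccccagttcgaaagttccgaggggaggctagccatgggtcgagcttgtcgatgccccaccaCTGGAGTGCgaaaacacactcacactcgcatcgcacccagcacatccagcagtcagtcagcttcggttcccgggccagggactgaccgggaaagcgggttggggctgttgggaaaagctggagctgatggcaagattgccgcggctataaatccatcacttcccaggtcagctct
TFAP2A start 2: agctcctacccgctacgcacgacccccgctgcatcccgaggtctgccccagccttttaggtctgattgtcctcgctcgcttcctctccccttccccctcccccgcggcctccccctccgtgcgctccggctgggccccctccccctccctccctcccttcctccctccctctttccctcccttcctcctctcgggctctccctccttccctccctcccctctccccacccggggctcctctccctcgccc
SFTPB start 1: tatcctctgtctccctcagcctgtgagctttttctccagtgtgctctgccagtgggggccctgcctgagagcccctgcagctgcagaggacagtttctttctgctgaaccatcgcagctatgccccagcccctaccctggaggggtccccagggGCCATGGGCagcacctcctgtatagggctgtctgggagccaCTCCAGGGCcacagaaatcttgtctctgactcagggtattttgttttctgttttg
SFTPB start 2: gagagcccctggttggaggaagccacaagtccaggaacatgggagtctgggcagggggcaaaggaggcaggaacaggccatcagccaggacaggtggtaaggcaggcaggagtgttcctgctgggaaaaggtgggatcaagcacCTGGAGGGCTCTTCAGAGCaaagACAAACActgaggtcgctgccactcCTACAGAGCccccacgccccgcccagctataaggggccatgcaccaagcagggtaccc

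The motifs were searched on both strands in 35116 RefSeq windows of this length. The forkhead motif was TGTTT followed by A or G and then by C or T, and was present in 13.3% of windows. An NKX2-1 type motif, GCNCTNNAG, was present in 14.3%, an AP-2 type motif, GCCNNNGGC, in 19.8%, and the direct repeat of the kind bound by PPAR with RXR, AGGTCA given 2 times in a row with 1 base of any kind between, in 0.0171%. The window of SFTPB start 2 held 4 matches to the NKX2-1 type motif between 106 and 50 bases before the start, 3 of them overlapping, and 1 forkhead match 83 to 77 bases before it. The window of SFTPB start 1 held 1 NKX2-1 type and 1 AP-2 type match. TFAP2A start 1 held 1 NKX2-1 type match and TFAP2A start 2 held none of these motifs. Of the other windows, 1 of NKX2-1, 1 of FOXA1 and 1 of GATA6 each held both a forkhead and an NKX2-1 type match, and the other NKX2-1 window held a forkhead match only. Both windows of MUC1, which overlap, held the same AP-2 type match, the window of SFTPD held none of the motifs, and no window of a member held the direct repeat. Windows were found for 7 of the 10 genes, and FOXA2, SFTPC and SCGB1A1 had none in the table used. A match describes the letters and does not show binding.

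Signals were analysed as quantile normalized log2(signal + 16), called the log2 level here, on which a value of 4 is the floor and changes of dim probe sets are understated. Array medians of the deposited signal ran from 36.2 to 54.3. Each pair of values below is replicate 1, then replicate 2. Differences are given with the standard error (SE) from limma, with n = 2 arrays per group, and limma p-values were adjusted by the Benjamini-Hochberg method across the 13338 probe sets left by a filter on dim signals. The filter kept probe sets with a mean log2 level of at least 5.38, which corresponds to a signal of 25.6. Of the 24 member probe sets 9 passed, from 5 genes (FOXA2, TFAP2A, SFTPB, SFTPC and MUC1). All probe sets of NKX2-1, FOXA1, GATA6, SFTPD and SCGB1A1 were below it. SFTPB 214354_x_at was just inside at a mean log2 level of 5.43 and FOXA1 204667_at just outside at 5.29. SFTPB 214354_x_at passed only through the treated groups, so it had to differ from control, and counts over the 9 are not given as support for any change.

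Of the members tested, 1 probe set passed the threshold of 0.05 in any of the 8 contrasts, TFAP2A 204653_at as a fall in the combination against control. Over all probe sets 0.225% were called in that contrast, 0.06% as falls. No member passed for rosiglitazone against control, where 0.36% of all probe sets did, or for carboplatin against control, where 0.015% did. At an unadjusted p below 0.05 there were 3 of 9 members for the combination (8.42% of all tested), 4 of 9 for rosiglitazone (10.4% of all tested) and 2 of 9 for carboplatin (5.17% of all tested). With no filter, limma called 0 of 24 members in each contrast with control, where it called 0.054% of all probe sets for the combination, 0.027% for rosiglitazone and 0% for carboplatin. The counts at an unadjusted p below 0.05 were then 4 for the combination (7.5% of all), 6 for rosiglitazone (8.68%) and 4 for carboplatin (5.51%). The groups did not overlap for 11 of 24 members in the combination against control, where 35.5% of all 22215 probe sets (control probe sets left out) did not overlap, for 12 after rosiglitazone (38.6%) and for 9 after carboplatin (34.4%). The median difference of the 24 was 0.036 for the combination, -0.0027 for rosiglitazone and 0.016 for carboplatin, and over all probe sets it was -0.0095, -0.0088 and -0.0049 in the same order.

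**Figure D1:**
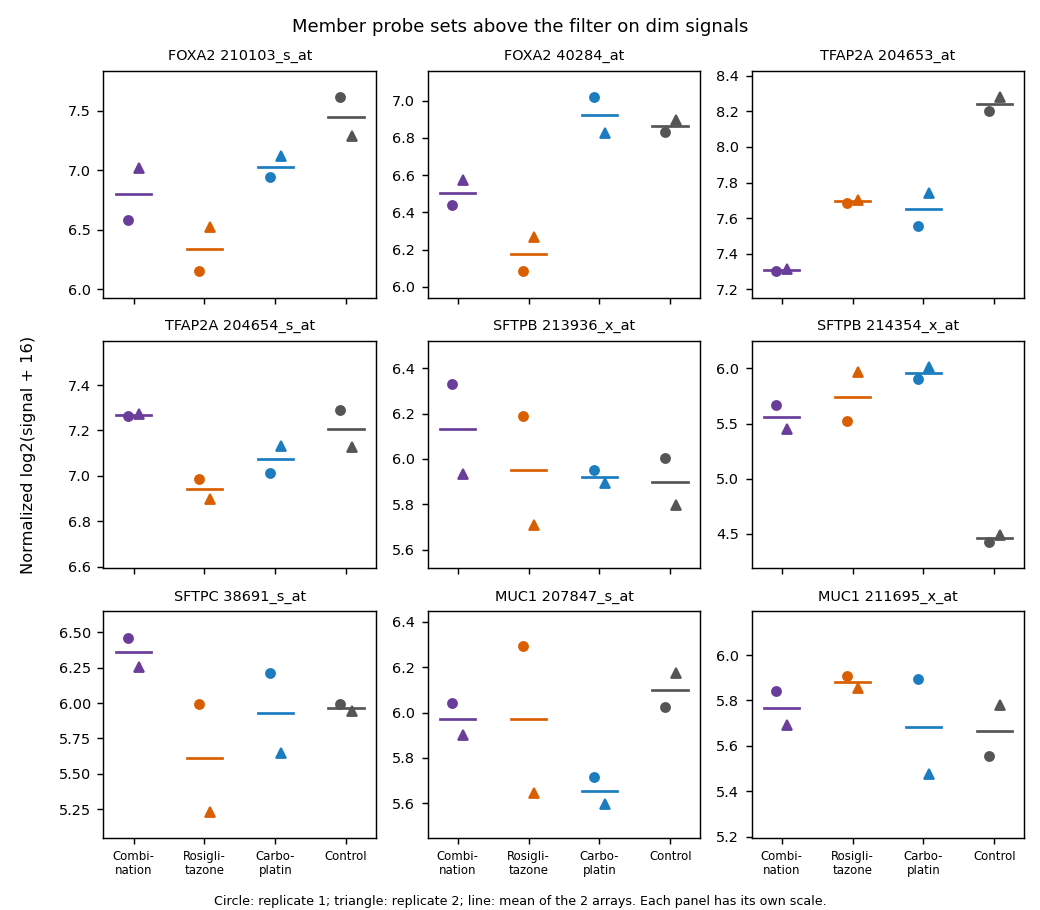
Log2 level (vertical axis, normalized log2(signal + 16)) of the 9 member probe sets above the filter, by treatment group. Points are single arrays and lines are means of 2 arrays; TFAP2A 204653_at is lowest in the combination (7.30 and 7.31) and highest in control (8.20 and 8.28).

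TFAP2A was the member with a called change, and only in 1 of its 3 probe sets. The log2 level of 204653_at was 7.30 and 7.31 in the combination, 7.69 and 7.70 after rosiglitazone, 7.56 and 7.74 after carboplatin, and 8.20 and 8.28 in control. On this normalized scale all 6 treated arrays lay below both control arrays, and both combination arrays lay below every other array. The share of all probe sets with this order was not counted. In deposited signal the combination arrays were at 116 and 179 and the control arrays at 307 and 244, without overlap, while 1 rosiglitazone array (251) lay above the lower control array and 1 carboplatin array (138) below a combination array. In the combination the probe set fell by 0.93 ± 0.15 on the log2 scale against control (0.524-fold, adjusted p = 0.0342). In RNA of a whole culture, fewer cells with a transcript and less of it per cell cannot be told apart. The difference from control was -0.55 ± 0.15 after rosiglitazone (adjusted p = 0.206) and -0.59 ± 0.15 after carboplatin (adjusted p = 0.759), neither past the threshold. With the deposited scaling the rosiglitazone value was -0.31. The rosiglitazone and carboplatin arrays overlapped each other. The combination differed by -0.34 ± 0.15 from carboplatin alone and by -0.39 ± 0.15 from rosiglitazone alone, with adjusted p of 0.753 and 0.9997. The interaction, which asks whether the combination differs from the sum of the single drugs, was 0.20 ± 0.21 (adjusted p = 0.918). Over 17 other settings the 3 values kept their sign, at -0.44 to -0.20 from carboplatin alone, -0.55 to -0.31 from rosiglitazone alone and 0.10 to 0.30 for the interaction. The call in the combination was lost without either control array, either rosiglitazone array or either combination array, with adjusted p from 0.053 to 0.243, and was kept without either carboplatin array. Over the 17 settings it was kept in 7, and the adjusted p ran from 0.0208 to 0.9999.

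A second TFAP2A probe set, 204654_s_at, which also passed the filter, did not follow it. Its log2 level was 7.26 and 7.27 in the combination, 6.99 and 6.90 after rosiglitazone, 7.01 and 7.13 after carboplatin, and 7.29 and 7.13 in control. Here the combination arrays lay between the control arrays, and the difference from control was 0.061 ± 0.16 (adjusted p = 0.967). It was -0.26 ± 0.16 after rosiglitazone (adjusted p = 0.615) and -0.14 ± 0.16 after carboplatin (adjusted p = 0.956). The difference between the 2 probe sets (204653_at minus 204654_s_at) was 0.039 and 0.039 in the combination, 0.70 and 0.80 after rosiglitazone, 0.55 and 0.61 after carboplatin and 0.91 and 1.15 in control. On these 8 arrays the 4 groups did not overlap in this difference. How often that occurs among other pairs of probe sets of 1 gene was not counted. The s_at mark denotes probes shared by several transcripts, and which TFAP2A transcripts each probe set reads was not analysed here. The remaining probe set, 210669_at, was dim, at 5.16 and 4.34 in the combination and 4.50 and 5.19 in control, and its groups overlapped. Over the 8 arrays 204653_at correlated with the other TFAP2A probe sets at Pearson r of -0.032 and -0.0096. Among 11836 candidate probe sets of other genes the most similar patterns to 204653_at were those of TOMM70 (r = 0.976), CDKN3 (r = 0.956) and TIAM1 (r = 0.955). These correlations rest on 8 arrays that share 4 treatments and describe these arrays only.

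**Figure D2:**
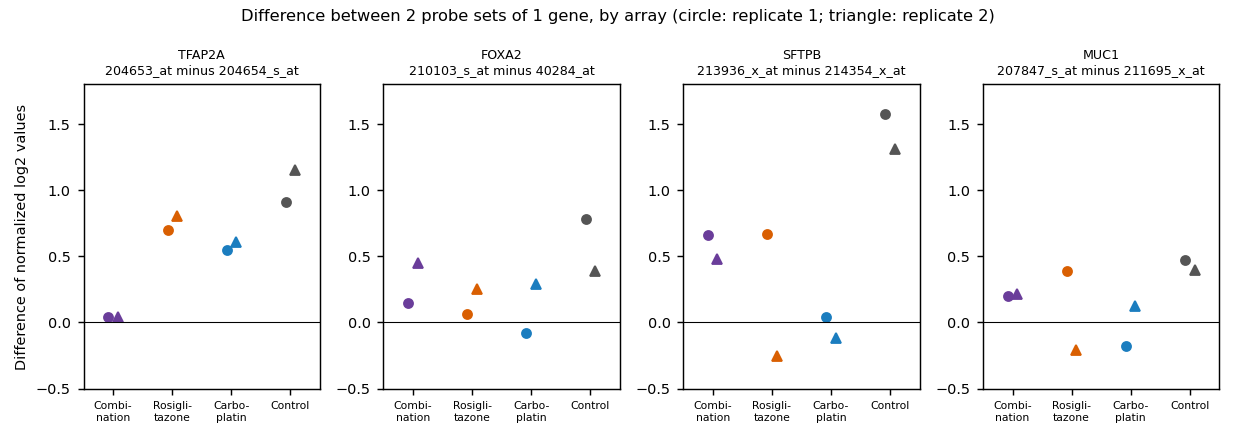
Difference of log2 levels between 2 probe sets of the same gene on each array (vertical axis), by treatment group, for the 4 genes with 2 probe sets above the filter. For TFAP2A it is 0.039 on both combination arrays and 0.91 and 1.15 in control; for FOXA2 the combination and control arrays overlap.

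FOXA2, a forkhead factor of endoderm and airway epithelium, was lower with rosiglitazone in both of its brighter probe sets without passing the threshold. The log2 level of 210103_s_at was 6.58 and 7.02 in the combination, 6.15 and 6.52 after rosiglitazone, 6.94 and 7.12 after carboplatin, and 7.62 and 7.29 in control. On the normalized scale every treated array lay below both control arrays, and the rosiglitazone arrays were the lowest. How many of all probe sets have such an order was not counted. In deposited signal the 6 treated arrays ran from 57.2 to 141, against 198 and 115 in control, so that 1 combination and 1 carboplatin array lay above the lower control array. The difference with rosiglitazone was -1.11 ± 0.22 (0.462-fold, adjusted p = 0.0649), with carboplatin -0.42 ± 0.22 (adjusted p = 0.928) and with the combination -0.65 ± 0.22 (adjusted p = 0.409). The rosiglitazone value passed with a filter at the 60th percentile (adjusted p = 0.0493) and with array brightness as a covariate (-1.41, adjusted p = 0.0319), and in none of the other 15 settings. Its adjusted p ran from 0.0319 to 0.525 over all 17, and the direction was the same in each, as it was for the values of the combination (-0.86 to -0.43) and carboplatin (-0.59 to -0.25).

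The level of 40284_at, also FOXA2, was 6.44 and 6.57 in the combination, 6.08 and 6.27 after rosiglitazone, 7.02 and 6.83 after carboplatin, and 6.83 and 6.90 in control. On the normalized scale the 4 arrays with rosiglitazone lay below the 4 without, which 2.95% of all tested probe sets did. In deposited signal they overlapped, at 54.3 to 97.9 with rosiglitazone and 83.2 to 106 without. Averaged over both backgrounds, the rosiglitazone main effect was -0.55 ± 0.13 for 40284_at (adjusted p = 0.100) and -0.67 ± 0.15 for 210103_s_at (adjusted p = 0.0871). The adjusted p for rosiglitazone alone against control was 0.198 at -0.69 ± 0.18, and the value ran from -0.83 to -0.44 over the other settings. With carboplatin alone the 2 probe sets differed in sign, 40284_at at 0.06 ± 0.18 (adjusted p = 0.984), which was -0.037 without carboplatin replicate 1. The 2 probe sets correlated at r = 0.835 over the 8 arrays. The dim probe set 214312_at was at 5.68 and 5.22 in the combination, 5.48 and 4.46 after rosiglitazone, 5.63 and 4.76 after carboplatin and 4.8 and 4.86 in control, and did not show the lower level.

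**Figure D3:**
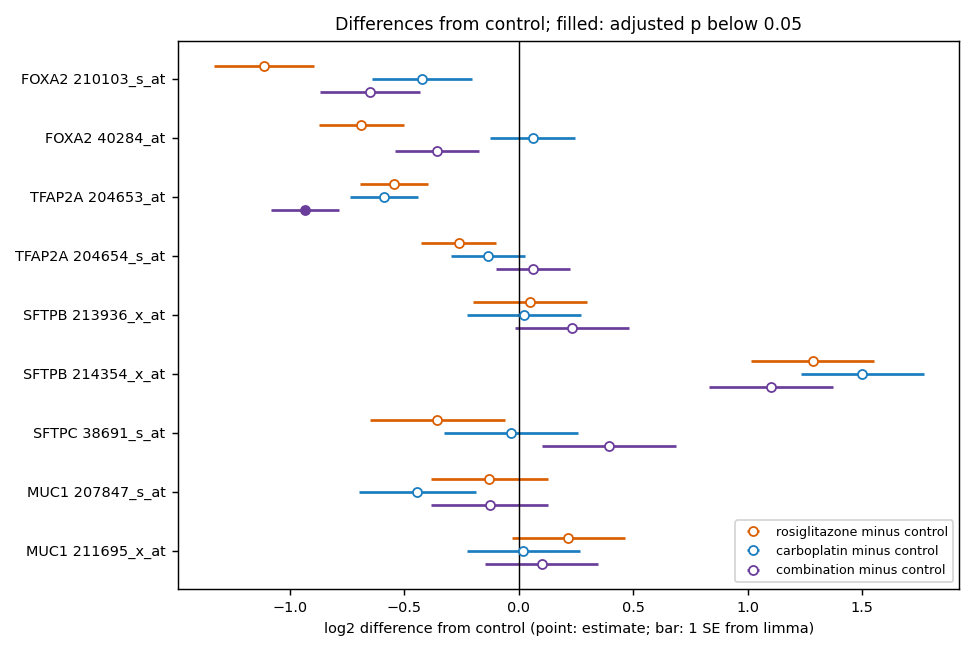
Log2 difference from control (horizontal axis) of the 9 member probe sets above the filter, with 1 SE from limma, for rosiglitazone, carboplatin and the combination. Only the combination value of TFAP2A 204653_at (-0.93) is filled, for an adjusted p below 0.05; the rosiglitazone values of both FOXA2 rows lie below 0 (-1.11 and -0.69).

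The other lineage factors were dim. FOXA1, the second forkhead factor, had a log2 level of 5.34 and 5.33 in the combination, 5.62 and 5.54 after rosiglitazone, 5.47 and 5.02 after carboplatin, and 5.13 and 4.86 in control. The rosiglitazone and combination arrays lay above both control arrays and the carboplatin arrays overlapped them. The difference with rosiglitazone was 0.59 (unadjusted p = 0.0492, adjusted p = 0.572, limma with no filter), opposite in sign to that of the bright FOXA2 probe sets, and it ran from 0.26 with a pseudocount of 64 to 0.97 with 1. The 2 probe sets of NKX2-1, 210673_x_at and 211024_s_at, had mean log2 levels of 4.23 and 4.67 and deposited signals from 1.22 to 4.88 and from 2.79 to 29.3. The log2 level of 211024_s_at was 4.42 and 5.40 in the combination, 4.44 and 4.44 after rosiglitazone, 4.77 and 4.25 after carboplatin, and 4.78 and 4.89 in control. Its highest value was thus 1 combination array, and the other combination array was among the low ones. NKX2-1 signal was near the floor of the scale on both probe sets, and limma with no filter called no difference of it in any contrast with control. GATA6 210002_at had a level of 4.56 and 5.21 in the combination, 5.03 and 4.65 after rosiglitazone, 4.58 and 5.32 after carboplatin, and 5.18 and 4.94 in control. The arrays of each treated group overlapped those of control, and every difference from control was at an unadjusted p of at least 0.523.

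SFTPB was read by 4 probe sets that did not move together. The log2 level of 214354_x_at was 5.67 and 5.45 in the combination, 5.52 and 5.97 after rosiglitazone, 5.91 and 6.01 after carboplatin, and 4.43 and 4.49 in control. In deposited signal the 6 treated arrays ran from 30.2 to 57.6, and the control arrays were at 5.56 and 5.71. All treated arrays lay above both control arrays, at differences of 1.10 ± 0.27 for the combination, 1.28 ± 0.27 for rosiglitazone and 1.5 ± 0.27 for carboplatin. None passed, with adjusted p of 0.178, 0.0883 and 0.386. The interaction was -1.68 ± 0.38 (unadjusted p = 0.00101, adjusted p = 0.821) and ran from -3.01 to -0.75 over the other settings. The probe set passed the filter only through the treated groups. Its differences from control and its interaction were thus in part fixed by the filter and are not support for a change. It was tested in 12 of the 17 other settings. The rosiglitazone value passed with the deposited scaling (1.46, adjusted p = 0.0171), where the median over all probe sets of that contrast was itself 0.22, and the sizes changed with the pseudocount by over 1.5 times, from 0.54 with 64 to 2.45 with 1 for rosiglitazone.

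The brightest SFTPB probe set, 213936_x_at, had a level of 6.33 and 5.93 in the combination, 6.19 and 5.71 after rosiglitazone, 5.95 and 5.90 after carboplatin, and 6.0 and 5.8 in control. Its groups overlapped, and its differences from control were 0.23 ± 0.25 for the combination, 0.05 ± 0.25 for rosiglitazone and 0.02 ± 0.25 for carboplatin. The dim 209810_at was at 5.29 and 4.96 in the combination, 5.34 and 5.15 after rosiglitazone, 4.58 and 4.24 after carboplatin, and 5.28 and 4.91 in control. Carboplatin alone was the low group there, at -0.68 (unadjusted p = 0.0241, adjusted p = 0.866, limma with no filter), where 214354_x_at was highest on average, and the value ran from -1.66 with a pseudocount of 1 to -0.25 with 64. The dim 37004_at overlapped between each treated group and control, at 5.62 and 4.31 in the combination and 5.36 and 4.97 in control. Correlations between the 4 probe sets over the 8 arrays ran from -0.377 to 0.496. The x_at mark on 214354_x_at and 213936_x_at denotes probes that can bind transcripts of other genes, so their signal cannot be assigned to SFTPB alone.

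SFTPC had 1 probe set above the filter, 38691_s_at, and 4 near the floor. Its log2 level was 6.46 and 6.25 in the combination, 5.99 and 5.23 after rosiglitazone, 6.22 and 5.65 after carboplatin, and 5.99 and 5.94 in control. Both combination arrays lay above every other array, at a difference from control of 0.39 ± 0.29 (adjusted p = 0.799) and from rosiglitazone alone of 0.75 ± 0.29 (unadjusted p = 0.0266, adjusted p = 0.9997). The share of all probe sets ordered this way was not counted. The difference from rosiglitazone alone was 0.36 without rosiglitazone replicate 2 and 1.14 without rosiglitazone replicate 1. The other SFTPC probe sets, 205982_x_at, 211735_x_at, 214387_x_at and 215454_x_at, had deposited signals from 1.59 to 10.1, and the correlation of any of them with 38691_s_at was at most 0.301. SFTPD 214199_at had a level of 4.10 and 4.48 in the combination, 4.27 and 4.19 after rosiglitazone, 4.19 and 4.54 after carboplatin, and 4.25 and 4.25 in control, near the floor on every array. Of the 10 surfactant probe sets 7 were thus below the filter, and no surfactant gene was called in any contrast.

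SCGB1A1, the club cell product, had a single dim probe set, 205725_at, that was high after rosiglitazone and low on the arrays with carboplatin. Its deposited signal was 5.42 and 4.05 in the combination, 28.4 and 29.3 after rosiglitazone, 4.82 and 2.36 after carboplatin, and 12.4 and 12.6 in control. The log2 levels were 4.46 and 4.31 in the combination, 5.41 and 5.32 after rosiglitazone, 4.42 and 4.22 after carboplatin and 4.81 and 4.93 in control. The rosiglitazone arrays were highest, the control arrays next, and the combination and carboplatin arrays lowest and overlapping each other. This full order was not counted over all probe sets. All 4 arrays with carboplatin lay below all 4 without, which 1.2% of all 22215 probe sets did. The carboplatin main effect was -0.77 (unadjusted p = 0.000252, adjusted p = 0.589, limma with no filter), and the combination differed from rosiglitazone alone by -0.98 (unadjusted p = 0.000501, adjusted p = 0.9999). Over the other settings these ran from -1.87 to -0.28 and from -2.18 to -0.37. Differences from control were -0.49 for the combination, 0.49 for rosiglitazone and -0.55 for carboplatin, with adjusted p of 0.576, 0.499 and 0.813, so no difference of this probe set passed. The directions from control were the same in all 17 other settings, while the size with carboplatin ran from -1.56 to -0.18.

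**Figure D4:**
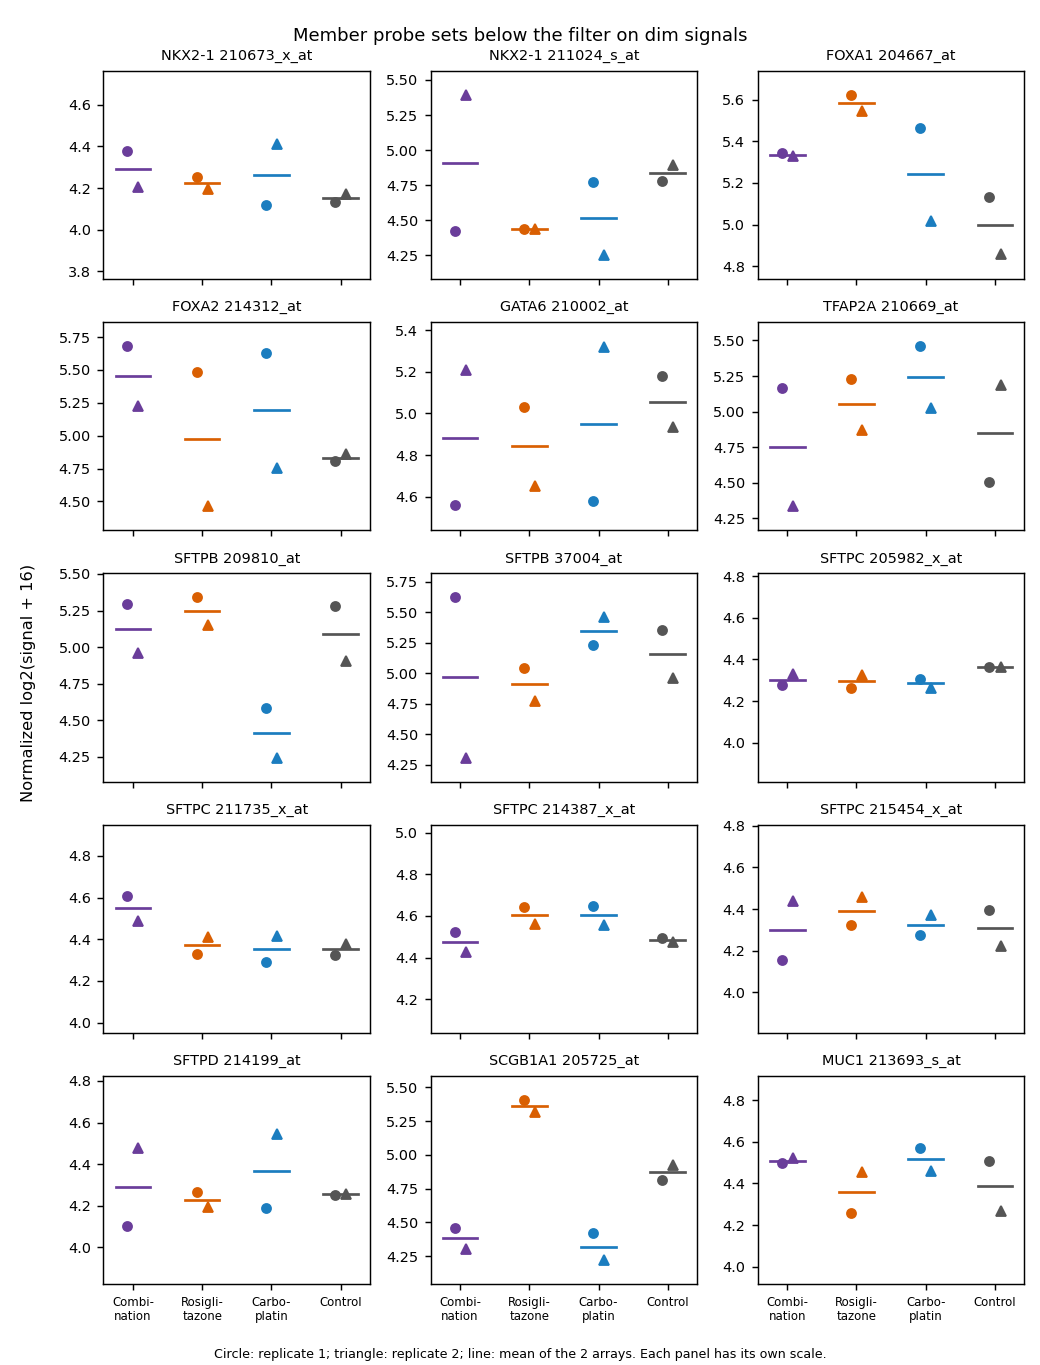
Log2 level (vertical axis, normalized log2(signal + 16), floor at 4) of the 15 member probe sets below the filter, by treatment group, with single arrays as points and means of 2 arrays as lines. SCGB1A1 205725_at is highest with rosiglitazone (5.41 and 5.32) and low on all 4 arrays with carboplatin; most SFTPC panels stay near the floor.

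MUC1, the membrane mucin, was measured by 2 probe sets above the filter, and no difference of either passed the test. The log2 level of 207847_s_at was 6.04 and 5.90 in the combination, 6.30 and 5.64 after rosiglitazone, 5.72 and 5.60 after carboplatin, and 6.02 and 6.18 in control. The carboplatin arrays lay below the control arrays, at -0.44 ± 0.26 (adjusted p = 0.928). The level of 211695_x_at was 5.84 and 5.69 in the combination, 5.91 and 5.85 after rosiglitazone, 5.89 and 5.48 after carboplatin, and 5.55 and 5.78 in control, and the largest of its differences from control was 0.22 ± 0.25 (rosiglitazone, adjusted p = 0.81). By its x_at mark, the signal of 211695_x_at cannot be assigned to MUC1 alone. The dim 213693_s_at had deposited signals from 3.0 to 7.74.

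In the other contrasts no member passed. The rosiglitazone main effect called 0 of the 9 members and 0.885% of all probe sets, with 4 members at an unadjusted p below 0.05 (9.96% of all). The combination against carboplatin called 0 of 9 and 0.157% of all, with 2 members below the unadjusted 0.05 (6.43% of all), and the combination against rosiglitazone called 0 of 9 and 0.0225%, also with 2 (4.54%). The carboplatin main effect called 0 of 9 and 0.03% of all, with 2 members below the unadjusted 0.05 (4.02%), and the interaction 0 of 9 and 0%, with 2 (5.97%).

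Other genes of lung epithelium, in 7 lists of 96 genes, had 49 with a probe set above the filter. None of the 49 was called in any contrast with control, and 2 were called for the rosiglitazone main effect (0.885% of all tested). At an unadjusted p below 0.05 there were 13 of 49 for the combination (8.42% of all tested), 7 for rosiglitazone (10.4%), 2 for carboplatin (5.17%) and 17 for the rosiglitazone main effect (9.96%). The lists were chosen with earlier results of these data known, so these counts are not given as support for any change. They include PGC (limma, unadjusted p = 0.0450 in the combination), which passed the filter only through treated groups. In the combination 28 of the 49 were higher (median 0.063, against -0.012 over all probe sets tested), with rosiglitazone 25 (0.035 against -0.012) and with carboplatin 19 (-0.057 against -0.0067). Of the 49, PGC, AGER, SOX2, MUC6 and MUC13 averaged below the filter level in control and passed it only through treated groups, so that their being higher was in part fixed by the filter. Without these 5 genes 23 of 44 were higher in the combination (median 0.031), 20 after rosiglitazone (-0.076) and 16 after carboplatin (-0.074). Genes below the filter level only in a treated group, such as TFF3 (5.33 after rosiglitazone), were kept, which favours lower values. The medians over all probe sets were not trimmed in this way. The largest differences among the named genes of these lists were those of SPDEF and AGR2. SPDEF, an ETS factor of secretory cells, was at -1.51 ± 0.29 in the combination (adjusted p = 0.0724). AGR2 encodes an endoplasmic reticulum protein of mucus-secreting cells. It was at -1.08 ± 0.26 in the combination and -1.09 ± 0.26 after rosiglitazone (adjusted p = 0.176 and 0.16). SPDEF, KRT8, KRT18 and MUC3A were read by x_at probe sets, so their signal cannot be assigned to these genes alone. As a rosiglitazone main effect AGR2 fell by 1.02 ± 0.19 (adjusted p = 0.0253) and KRT7, a keratin of simple epithelium, rose by 0.56 ± 0.09 (adjusted p = 0.0138). Of the 6 simple epithelial markers tested 4 were higher in that contrast and 2 lower, KRT18 at -0.17 ± 0.06 and TJP1 at -0.13 ± 0.09. Among transcription factors ID2 was at -0.57 ± 0.17 in the combination and -0.65 ± 0.17 after rosiglitazone, and ELF3 at 0.41 ± 0.16 in the combination. MYBL2 was at -0.41 ± 0.18 after carboplatin, 0.36 ± 0.18 in the combination and 0.27 ± 0.18 after rosiglitazone, none past the threshold. TFAP2C, the AP-2γ paralog of TFAP2A, was at -0.45 ± 0.18 in the combination and -0.45 ± 0.18 after rosiglitazone (adjusted p = 0.533 and 0.432). The AP-2 partner list had 3 tested genes, all lower in the combination, with WWOX at -0.31 ± 0.18 and KCTD15 at -0.04 ± 0.18. Of 10 surfactant and alveolar type 2 genes 6 were higher in the combination, among them CEBPD (0.60 ± 0.21) and PGC (0.59 ± 0.26), while DMBT1 (-0.38 ± 0.26) and CTSH (-0.11 ± 0.17) were lower. Of 4 alveolar type 1 genes 3 were higher, AGER at 0.83 ± 0.40, CLIC5 at 0.38 ± 0.25 and CAV1 at 0.34 ± 0.12, and EMP2 was at -0.23 ± 0.17. The 9 airway secretory and ciliated genes had 4 higher, with TFF3 at -0.49 ± 0.29, PIGR at -0.53 ± 0.25 and TUBA1A at -0.29 ± 0.13. All 4 other mucins tested were higher in the combination, MUC13 at 0.76 ± 0.35, MUC6 at 0.57 ± 0.36, MUC3A at 0.21 ± 0.24 and MUC5AC at 0.20 ± 0.25. Of 14 other lung and foregut transcription factors 8 were higher in the combination, and of 6 simple epithelial markers 4 were. KRT7 was at 0.59 ± 0.13 and KRT8 at 0.42 ± 0.14 there, and the 2 lower markers were KRT18 at -0.26 ± 0.09 and TJP1 at -0.19 ± 0.12. The median differences in the combination were 0.092 for the alveolar type 2 list, 0.36 for type 1, -0.072 for airway genes, 0.042 for transcription factors, -0.31 for AP-2 partners, 0.39 for mucins and 0.17 for epithelial markers. Without the 5 genes they were 0.063 for type 2, 0.34 for type 1, 0.037 for transcription factors and 0.20 for the 2 mucins left.

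The label of an epithelial line was checked against its markers. The keratins KRT18, KRT8 and KRT7 had median deposited signals of 4896, 2648 and 4181 in the combination and 5394, 1833 and 2526 in control. EPCAM, a defining epithelial surface marker, was dim, with a median signal of 17.9 in the combination, 24.7 after rosiglitazone, 9.47 after carboplatin and 8.50 in control, and 6 of the 12 epithelial markers were below the filter. The summed signal of the 12 was 10490 to 15090 in the combination, 11020 to 15150 after rosiglitazone, 8921 to 10500 after carboplatin and 10000 to 11620 in control. VIM, which many carcinoma lines express, was at 8324 in the combination and 7370 in control, and the other fibroblast markers were at or below 158. The summed signals of basal, neuroendocrine, endothelial and leukocyte markers were at most 77.0, 121.2, 83.2 and 143.3 on any array, with no marker at 0. Basal markers summed to 76.7 to 77.0 in the combination, 68.5 to 75.2 after rosiglitazone, 38.7 to 59.2 after carboplatin and 47.3 to 53.8 in control. These sums use deposited signals without normalization, and of the 4 basal genes on the array only SOX2 passed the filter. Its median signal was 42.7 in the combination and 23.2 in control, and that of DSG3 was 18.8 and 7.76. KRT5 (13.0 and 15.4) and KRT14 (2.45 and 4.20) were lower in the combination than in control. The part of these signals in the member results was not tested.

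**Figure D5:**
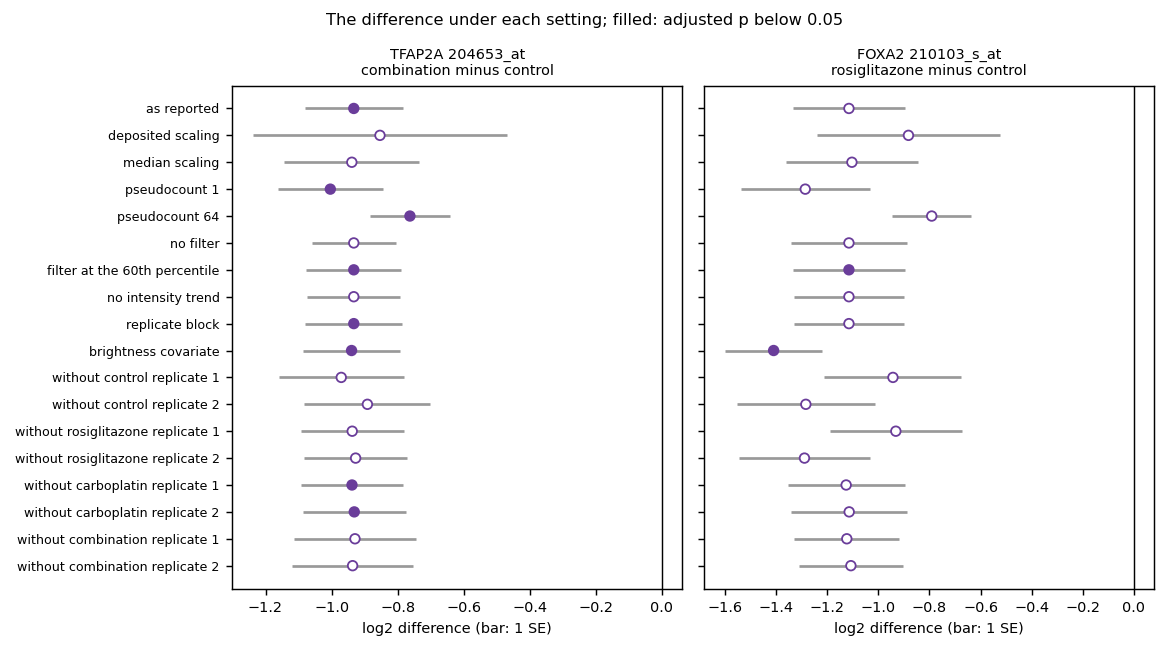
Log2 difference (horizontal axis, with 1 SE) of TFAP2A 204653_at in the combination against control and of FOXA2 210103_s_at with rosiglitazone against control, as reported and under 17 other settings. Both stay below 0 in every setting; filled points have an adjusted p below 0.05, in 7 other settings for TFAP2A and 2 for FOXA2.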

How the data were processed

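The deposited table holds intensity values on a linear scale, 1 per probe set and array; how the authors made them (software, background correction, scaling) is not given in the sources used here. Labelled RNA was copied from oligo-dT primed cDNA, per the labels' protocols. Signals were taken as log2(signal + 16) and quantile normalized, since array medians spanned 0.43 on that scale. The 68 control probe sets and those with a mean below the 40th percentile were left out, which left 13338. The 8 arrays entered a single limma model (version 3.58.1, R 4.3.3; lmFit, then eBayes with an intensity trend; 4 residual and 7.1 prior degrees of freedom), with two-sided tests, Benjamini-Hochberg adjustment and a threshold of 0.05. Precision is limited by the number of arrays. All 10 symbols were matched to the RefSeq gene table of GRCh38.p14 by Entrez identifier. Upstream sequences are from RefSeq, build GRCh38.p14.

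The members and gene lists were chosen with earlier results of these data known. All member probe sets were named, with up to 4 genes of smallest p per list, a gene being read by its brightest probe set above the filter, and the 3 most similar patterns of each called member. Settings varied were the scaling, the pseudocount, the filter, the trend, the groups fitted, a replicate block, each array's median log2 signal (brightness) as a covariate, and leaving out each array.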

Additional observations from a re-analysis of the deposited data

How the results depend on the processing

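The number of members called in the combination against control was 1 and became 0 with the deposited scaling, median scaling, no filter, no intensity trend and only the groups compared, and 0 to 1 when 1 array was left out; with the replicate block it was 1. The combination difference of TFAP2A 204653_at was -0.85 with the deposited scaling, -0.94 with median scaling and -0.93 with no filter or no trend, and -0.97 to -0.89 with an array left out. For rosiglitazone against control the count of 0 became 1 with the deposited scaling (SFTPB 214354_x_at), the 60th percentile filter and the brightness covariate (both FOXA2 210103_s_at), and for the rosiglitazone main effect it became 1 with that covariate. The other 5 counts were 0 in every setting. No difference that had been called changed sign. Of the others, MUC1 207847_s_at with rosiglitazone became 0.082 with the deposited scaling and 0.066 with the brightness covariate, and MUC1 211695_x_at with carboplatin became -0.00091 with median scaling. Leaving out 1 array gave -0.037 to 0.16 for FOXA2 40284_at with carboplatin, -0.0201 to 0.141 for TFAP2A 204654_s_at in the combination, -0.19 to 0.28 after rosiglitazone and -0.081 to 0.12 after carboplatin for SFTPB 213936_x_at, -0.74 to 0.026 after rosiglitazone and -0.32 to 0.25 after carboplatin for SFTPC 38691_s_at, -0.46 to 0.19 for MUC1 207847_s_at with rosiglitazone, and -0.19 to 0.22 after carboplatin and -0.012 to 0.21 in the combination for MUC1 211695_x_at. For the dim SFTPB 209810_at it gave -0.033 to 0.34 with rosiglitazone and -0.15 to 0.22 in the combination, where median scaling also turned the sign (-0.047). The causes were not tested. Same-numbered arrays had deviations correlated at -0.110 to 0.253, highest between the combination and carboplatin, which does not settle whether replicate numbers pair the samples. The replicate block changed no call of a member (TFAP2A 204653_at, adjusted p = 0.0450). A group left with 1 array was assumed to have the spread of the rest. Dim members near the floor limit what differences could be seen.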
